A study of Mus musculus with 3 samples.

Results

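The genes described here build and shape the cristae, the folds of the inner mitochondrial membrane. The set was Immt, Chchd3, Chchd6, Apoo and Apool of the MICOS complex, Opa1, and Samm50 of the outer membrane bridge, chosen by gene symbol. Of these 7 genes, 6 had exonic parts under their own symbol, with 166 of 469293 parts in all. An exonic part is a stretch between neighbouring exon boundaries of the annotated transcripts of a gene. The set was proposed with measured values of these libraries known, so all values below are descriptions and none carries a test.

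Hearts were taken from knock-in mice with both copies or 1 copy of Rbm20 carrying the I538T change, and from wild-type mice. RBM20 is a splicing regulator of heart and skeletal muscle that binds UCUU motifs in target RNAs, and the change lies in its RNA recognition motif. RNA-seq libraries were made from hearts at 12 weeks of age, with 1 library for a homozygote, 1 for a heterozygote and 1 for a wild-type heart. The line was made by Cas9 editing of C57BL/6 zygotes, and founders were mated to C57BL/6J mice to give sequenced heterozygous offspring. With 1 library per genotype, a genotype and its library cannot be told apart, and the sources used here differ on whether the values come from a single mouse or several mice.

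MICOS sits at crista junctions, the narrow necks that join cristae to the inner boundary membrane. Immt encodes MIC60, its scaffold, and Chchd3 and Chchd6 encode MIC19 and MIC25, which bind MIC60. Apoo and Apool encode MIC26 and MIC27, apolipoprotein-like subunits of the MIC10 branch of the complex. Samm50 is the outer membrane protein to which MICOS binds. Opa1 encodes a dynamin-like GTPase that fuses inner membranes and keeps crista junctions tight. Heart muscle is packed with mitochondria of dense cristae, and loss of OPA1 function is known to impair them.

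The alternative coding exons of Opa1, Immt and Chchd6 described below are shown first. All sequences are the sense strand of GENCODE M21 transcripts on GRCm38, and each exon keeps the reading frame.
Opa1 exon 4b: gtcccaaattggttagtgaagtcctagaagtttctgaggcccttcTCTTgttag
Opa1 exon 5b: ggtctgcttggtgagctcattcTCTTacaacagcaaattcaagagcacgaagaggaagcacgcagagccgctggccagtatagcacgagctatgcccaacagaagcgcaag
Immt alternative exon: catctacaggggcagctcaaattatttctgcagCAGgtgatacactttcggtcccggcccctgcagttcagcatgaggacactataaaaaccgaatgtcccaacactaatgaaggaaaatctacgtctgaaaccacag
Chchd6 skipped exon: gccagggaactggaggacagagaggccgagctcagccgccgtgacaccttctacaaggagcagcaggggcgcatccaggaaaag
Opa1 exon 4b (54 bp) lies at chr16:29588823-29588876 on the plus strand, and exon 5b (111 bp) at chr16:29597586-29597696 on the plus strand. In both, capitals mark TCTT, the DNA letters of UCUU. The alternative exon of Immt (138 bp) lies at chr6:71852730-71852867 on the plus strand, and its capitals mark a 3-base exonic part between neighbouring acceptor sites. The skipped exon of Chchd6 (84 bp) lies at chr6:89467390-89467473 on the minus strand. Searched on the sense strand only, TCTT occurred 1 time in each Opa1 exon and 0 times in the exons of Immt and Chchd6. Among annotated internal exons within 5 bp of the same length, TCTT occurred in 1585 of 7928 for exon 4b, 37.7% for exon 5b, 43.3% for the Immt exon and 30.3% for the Chchd6 exon. The flanking introns were not analysed here.

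The deposited table held, for each exonic part, inclusion reads that cover the part and exclusion reads whose splice junction skips it. Percent spliced in (PSI) is the inclusion density over the sum of inclusion and exclusion densities. The libraries held 157990953 inclusion reads in the homozygote, 157178099 in the heterozygote and 149633524 in the wild-type heart. Of the 166 member parts, 158 had at least 20 reads in each library. Of these, 117 had a PSI of at least 95% in all 3 libraries and 29 had a PSI of at most 5% in all 3. Only 12 parts, or 7.59%, were variable, meaning a PSI between 5% and 95% in at least 1 library, against 16.8% of all 197201 parts of that depth. By gene, 4 of 45 parts were variable in Immt, 4 of 16 in Apoo, 2 of 43 in Opa1, 1 of 13 in Chchd6, 1 of 11 in Apool and 0 of 30 in Chchd3. Intervals below are exact 95% Clopper-Pearson limits of the inclusion share, converted to PSI, and the limits of a difference were built from those of its libraries. They express counting error alone. Reads were amplified and carried no molecular identifiers, so they are not separate molecules.

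**Figure D1:**
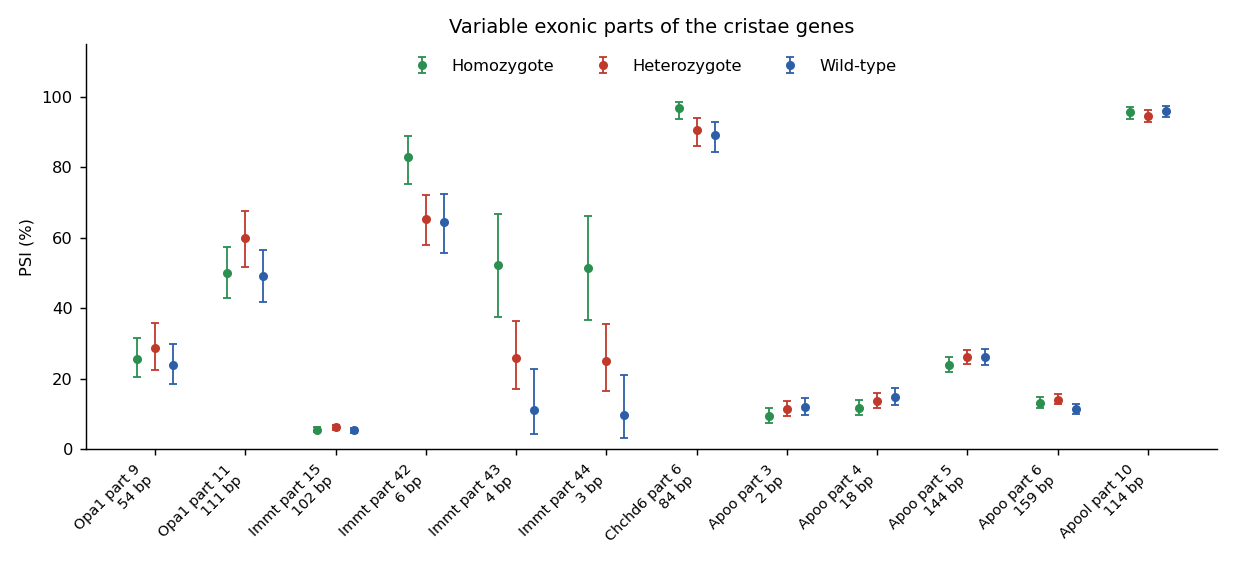
PSI in percent of the 12 variable exonic parts, with points for the homozygote, heterozygote and wild-type libraries and bars for exact 95% counting intervals. The Immt parts 43 and 44 stand apart with 52.3% and 51.5% in the homozygote, 25.9% and 25.1% in the heterozygote, and 11.2% and 9.60% in the wild-type heart.

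Between homozygote and wild-type, 2 of the 158 member parts differed by at least 20 points, both in Immt and both higher in the homozygote. Over all parts with 20 reads in both libraries the share past this size was 1.51%, and at 10 points 3 member parts passed, against 4.23% of all parts. Between heterozygote and wild-type, 0 member parts passed 20 points, against 1.58% of all parts. At 10 points 3 member parts passed, 2 in Immt and 1 in Opa1, against 4.55% of all parts. Between homozygote and heterozygote, 2 parts passed 20 points, again the Immt parts, against 1.53% of all parts. The members' shares were thus near or below those of all parts. The median absolute PSI difference of the member parts was 0.0897 points between homozygote and wild-type and 0.0731 points between heterozygote and wild-type, and 0 points over all parts in both comparisons.

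Opa1, the inner membrane fusion GTPase, had a pair of alternative exons near its 5' end. Both lie before the GTPase domain, and exon 4b had the lower PSI of the pair. PSI of exon 4b was 25.7% (20.4 to 31.6) in the homozygote, 28.8% (22.6 to 35.8) in the heterozygote and 23.8% (18.4 to 29.99) in the wild-type heart. These rested on 71, 62 and 58 inclusion reads and 145, 108 and 131 exclusion reads, in the same order of libraries. The homozygote minus wild-type difference was 1.87 points (-6.26 to 9.90), and the heterozygote minus wild-type difference was 5.02 points (-3.78 to 13.9). All 3 intervals overlapped, and at this depth no difference in exon 4b was detectable.

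Exon 5b of Opa1 encodes the site at which the protease YME1L cuts OPA1, while the site cut by OMA1 lies in the exon before it. Its PSI was 50.1% (42.9 to 57.4) in the homozygote, 59.8% (51.9 to 67.6) in the heterozygote and 49.1% (41.7 to 56.6) in the wild-type heart. The reads were 140 inclusion and 75 exclusion in the homozygote, 144 and 52 in the heterozygote, and 129 and 72 in the wild-type heart. The homozygote stood within 1.03 points of wild-type (-9.35 to 11.4). The heterozygote stood 10.8 points above wild-type, and the counting interval of that difference, -0.20 to 21.4, included 0. The heterozygote was the highest library for both Opa1 exons, and the homozygote did not lie beyond it in either.

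Immt, the MIC60 scaffold gene, lies at chr6:71831331-71877388 on the plus strand. Its parts 43 (4 bp, chr6:71875251-71875254) and 44 (3 bp, chr6:71875255-71875257) were those past 20 points. They are the final bases of the 3' untranslated region in the main last exon, not a cassette exon, and part 44 belongs to the Immt-203 transcript alone. Part 44 had a PSI of 51.5% (36.7 to 66.2) in the homozygote, 25.1% (16.5 to 35.6) in the heterozygote and 9.60% (3.19 to 21.03) in the wild-type heart. Its inclusion reads numbered 25, 22 and 5, and its exclusion reads 23, 64 and 46, for homozygote, heterozygote and wild-type. The homozygote minus wild-type difference was 41.9 points (23.2 to 57.9), and the heterozygote minus wild-type difference was 15.5 points (1.19 to 27.8). Part 43 held nearly the same reads, 26, 23 and 6 for inclusion and the same 23, 64 and 46 for exclusion, so the pair is a single observation. Of parts of at most 10 bp, 1.84% differed by at least 20 points between homozygote and wild-type.

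The differences in PSI narrowed towards the start of the same exon. The 6-bp part 42, just before the pair, had 82.8% in the homozygote, 65.3% in the heterozygote and 64.4% in the wild-type heart, a homozygote minus wild-type difference of 18.4 points (7.39 to 29.1). The 314-bp part 41 before it had 98.3% in the homozygote, 95.8% in the heterozygote and 96.4% in the wild-type heart, on 4697, 5063 and 4229 inclusion reads. The 394-bp part 39, annotated as coding and untranslated sequence, had 100% in each library. All of parts 41 to 44 shared 23, 64 and 46 exclusion reads, so within a library PSI fell along them through inclusion reads alone, which thin out towards the transcript end.

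The exclusion reads of these parts run to an alternative last exon of Immt at chr6:71877249-71877385, used by Immt-210 and Immt-213. By annotation, those transcripts include part 39 but not the 4-bp part 40. Part 40 already had 23, 65 and 46 exclusion reads, for homozygote, heterozygote and wild-type, whereas part 39 had 0 in each library. The junction thus leaves inside the main last exon, before part 40, and not at its final bases. Junction reads that skip part 44 came to 0.146 counts per 1000000 inclusion reads of the library (CPM) in the homozygote, 0.407 in the heterozygote and 0.307 in the wild-type heart. The ratio of homozygote to wild-type was 0.474 (exact interval 0.274 to 0.798), and that of heterozygote to wild-type was 1.33 (0.893 to 1.98). Reads over the alternative last exon itself numbered 27 in the homozygote, 71 in the heterozygote and 49 in the wild-type heart, with ratios of 0.522 (0.314 to 0.851) and 1.38 (0.945 to 2.03) over wild-type. The alternative end was thus least used in the homozygote by both counts, which partly come from the same reads, and the heterozygote did not lie between the other libraries.

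The final 3 bases of the main end gave the other side of the PSI. They held 25 reads in the homozygote, 22 in the heterozygote and 5 in the wild-type heart, a ratio over wild-type of 4.74 (1.78 to 15.8) in the homozygote and 4.19 (1.55 to 14.2) in the heterozygote. Per read of the 314-bp part they came to 0.532% (0.345 to 0.785) in the homozygote, 0.435% (0.273 to 0.657) in the heterozygote and 0.118% (0.0384 to 0.276) in the wild-type heart. Both mutant libraries were high and close to each other in these reads, whereas in junction reads only the homozygote stood apart. The 314-bp part itself differed little, with ratios of 1.05 (1.01 to 1.097) for the homozygote and 1.14 (1.09 to 1.19) for the heterozygote.

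**Figure D2:**
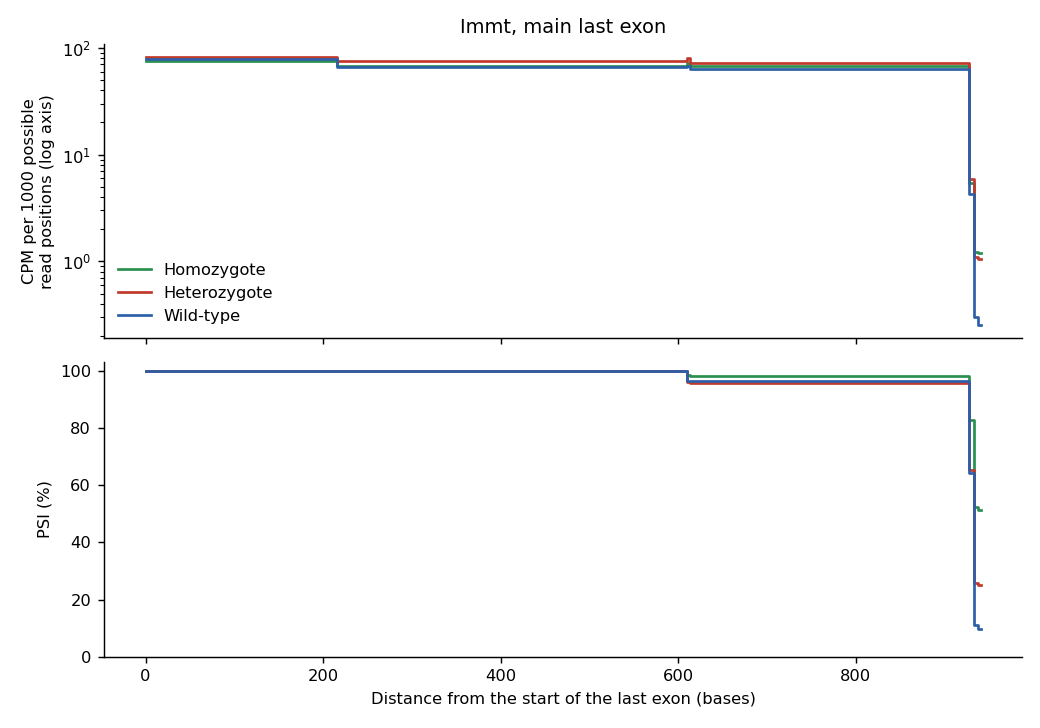
Main last exon of Immt in the homozygote, heterozygote and wild-type libraries, against distance in bases from the exon start, with CPM per 1000 possible read positions on a log axis above and PSI in percent below. Density drops at the end of the 314-bp part in all 3 libraries, and the lines of PSI part most over the final bases, where the homozygote ends at 51.5%, the heterozygote at 25.1% and the wild-type heart at 9.60%.

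The coding exons of Immt were close in all libraries. The 102-bp part of the alternative exon shown above had a PSI of 5.47% in the homozygote, 6.18% in the heterozygote and 5.36% in the wild-type heart. Its 3-base part in capitals had 3.91%, 4.401% and 3.999%, and the 33 bases before it had 1.52%, 1.98% and 1.92%, for homozygote, heterozygote and wild-type. The homozygote minus wild-type difference of the 102-bp part was 0.11 points (-0.90 to 1.12). The first exon of Immt, parts 1 to 9, overlaps genes annotated on the other strand, and reads there are uncertain.

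Chchd6, which encodes the MIC60 partner MIC25, skipped its 84-bp coding exon less in the homozygote. PSI was 96.8% (93.8 to 98.6) in the homozygote, 90.6% (86.0 to 94.1) in the heterozygote and 89.0% (84.3 to 92.8) in the wild-type heart. Exclusion reads numbered 8 in the homozygote, 20 in the heterozygote and 24 in the wild-type heart, beside 397, 318 and 322 inclusion reads. The homozygote was 7.74 points above wild-type (2.94 to 12.8), below the size of 10 points, and the heterozygote was 1.55 points above it (-4.396 to 7.47).

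Chchd3, which encodes MIC19, had no variable part. In 5 coding parts near its 3' end, parts 13 to 15, 18 and 19, PSI was 98.0% to 98.2% in the homozygote, 99.6% to 99.9% in the heterozygote and 99.3% to 99.6% in the wild-type heart. Exclusion reads there were 49 to 50 in the homozygote, 2 to 13 in the heterozygote and 10 to 18 in the wild-type heart, and the near-equal counts in the homozygote are those of parts that share junction reads.

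Apoo, which encodes MIC26, had its 4 variable parts in alternative forms of the 5' end. The 144-bp part 5 had a PSI of 24.0% (21.9 to 26.2) in the homozygote, 26.1% (24.1 to 28.3) in the heterozygote and 26.2% (24.0 to 28.5) in the wild-type heart. The 159-bp part 6 had 13.2% in the homozygote, 14.1% in the heterozygote and 11.3% in the wild-type heart. The 2-bp and 18-bp parts before them had 9.47% and 11.6% in the homozygote, 11.3% and 13.8% in the heterozygote, and 12.0% and 14.8% in the wild-type heart. The largest of these differences between any 2 libraries was 3.19 points. In Apool, which encodes MIC27, the 114-bp coding part 10 had 95.6% in the homozygote, 94.6% in the heterozygote and 96.1% in the wild-type heart.

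The rule for a variable part left some parts just outside. The nearest outside were Immt part 41 with a lowest PSI of 95.8%, Immt part 14 with a highest of 4.401% and Chchd3 part 26 with a lowest of 95.5%. The nearest inside were Apool part 10 with a lowest of 94.6%, Immt part 15 with a highest of 6.18% and Chchd6 part 6 with a lowest of 89.0%.

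Samm50 had no part under its own symbol. Its exons fell in a combined locus of 3 overlapping gene IDs with 43 parts, of which 29 lay in annotated Samm50 exons, so its reads cannot be assigned with certainty. Over those 29 parts there were 276.6 CPM in the homozygote, 302.7 in the heterozygote and 276.6 in the wild-type heart. The log2 ratio over wild-type was -0.000 (-0.020 to 0.019) in the homozygote and 0.13 (0.11 to 0.15) in the heterozygote. A run of 12 parts between chr15:84198574 and chr15:84207900 had 68 to 70 exclusion reads in the homozygote, 0 to 2 in the heterozygote and 2 to 5 in the wild-type heart. The near-equal counts in the homozygote are those of parts that share junction reads, so the 12 parts are not separate observations. PSI over that run was 94.8% to 96.0% in the homozygote, 99.9% to 100% in the heterozygote and 99.7% to 99.9% in the wild-type heart. The largest PSI difference between libraries among the Samm50 parts was 5.22 points.

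The gene levels of the set were close in the 3 libraries. They are inclusion reads summed over the parts of a gene, in CPM, and ratios are of CPM plus 1. Immt had 426.9 CPM in the homozygote, 462.8 in the heterozygote and 431.4 in the wild-type heart. Chchd3 had 393.6 CPM in the homozygote, 441.9 in the heterozygote and 390.1 in the wild-type heart. Apoo had 330.2 CPM in the homozygote, 335.6 in the heterozygote and 334.4 in the wild-type heart. The heterozygote was the highest library in all of these, though in Apoo its log2 ratio of 0.005 to wild-type had an interval of -0.012 to 0.023.

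The less abundant members were as close. Opa1 had 76.2 CPM in the homozygote, 75.0 in the heterozygote and 71.5 in the wild-type heart. Apool had 51.5 CPM in the homozygote, 54.0 in the heterozygote and 50.9 in the wild-type heart. Chchd6 had 22.2 CPM in the homozygote, 21.4 in the heterozygote and 21.7 in the wild-type heart. In bulk heart RNA, fewer cells of a type and less RNA per cell cannot be told apart.

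On the log2 scale, the homozygote to wild-type ratio lay between -0.018 (Apoo, -0.036 to -0.000) and 0.091 (Opa1, 0.054 to 0.128), with a median of 0.015 over the 6 genes, beside -0.083 over all 12862 genes measured. The heterozygote to wild-type ratio lay between -0.020 (Chchd6, -0.086 to 0.047) and 0.179 (Chchd3, 0.163 to 0.195), with a median of 0.077, beside 0.006 over all genes. None of the 6 passed a log2 ratio of 0.5 in either mutant library, against 9.38% of all genes for the homozygote and 6.83% for the heterozygote. The sign of a member's small ratio depended on the library total used. Hemoglobin and other blood genes took 10.7% of reads in the homozygote, 3.20% in the heterozygote and 8.61% in the wild-type heart. With these genes left out of the total, Immt stood at 0.019 in the homozygote and 0.018 in the heterozygote, Apoo at 0.016 and -0.078, and Opa1 at 0.124 and -0.013.

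**Figure D3:**
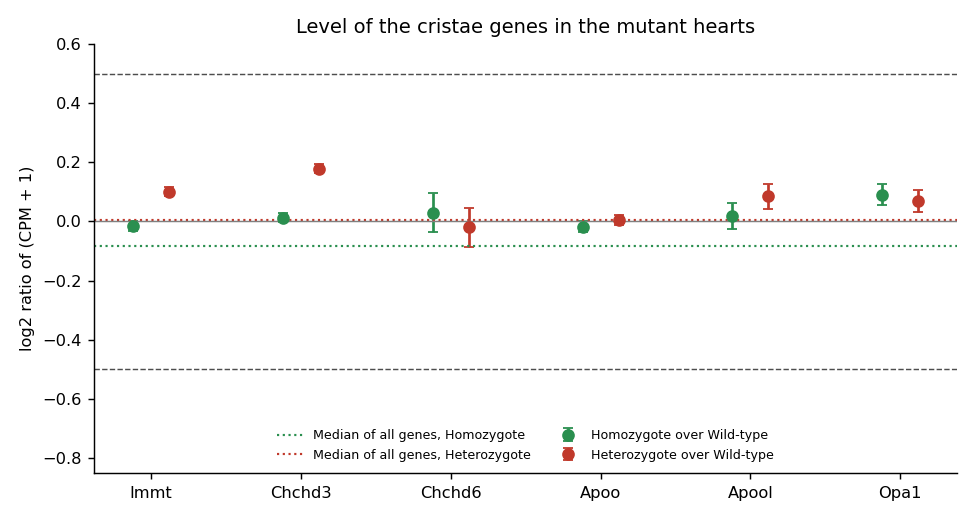
Log2 ratio of CPM plus 1 over wild-type for the 6 genes in the homozygote and the heterozygote, with bars for 95% counting intervals, dotted lines for the median of all genes and dashed lines at a ratio of 0.5 in either direction. The intervals are approximate and were built from the exact Poisson limits of each count. All points lie between -0.020 and 0.179.

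Between genes, levels were compared as CPM per 1000 possible read positions over the constitutive parts (PSI of at least 95% in each library), which takes length into account. That rule also admits end parts that no junction read skips. Among them are the alternative last exon of Immt and the 3005-bp part 45 of Opa1, which belongs to Opa1-206 alone. Levels without such parts were not computed. Apoo was highest, with 138.6 in the homozygote, 140.4 in the heterozygote and 140.3 in the wild-type heart. Chchd3 followed with 91.2 to 103.4 over the libraries, Immt with 64.9 to 70.3 and Apool with 18.2 to 19.3. Chchd6 had 8.33 to 8.46 and Opa1 6.47 to 6.89. The ranges of neighbours in this order did not overlap, and the order was the same in all 3 libraries.

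Ratios were not even along Opa1. Over 35 constitutive parts with at least 100 reads in each library, the homozygote to wild-type log2 ratio ran between -0.26 and 0.66, with a median of 0.098, and the heterozygote to wild-type ratio between -0.38 and 0.75, with a median of -0.006. Parts 13 to 19 were above 0 in both mutants and were the 7 highest in the homozygote, at 0.33 to 0.66. In the heterozygote they stood at 0.24 to 0.75, and high values also fell elsewhere, with 0.58 (0.28 to 0.88) in part 7, 0.39 in part 6 and 0.37 in part 36. Part 14 had 277 reads in the homozygote, 293 in the heterozygote and 166 in the wild-type heart, a log2 ratio of 0.66 (0.38 to 0.95) for the homozygote and 0.75 (0.47 to 1.03) for the heterozygote. The PSI of parts 13 to 19 was not lower in wild-type beyond 4 exclusion reads that skipped parts 16 to 38 in that library alone. Reads that span neighbouring parts are counted in each, so neighbouring ratios are not independent. The ratios of both mutants are over the same wild-type library, so they are not independent of each other either.

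**Figure D4:**
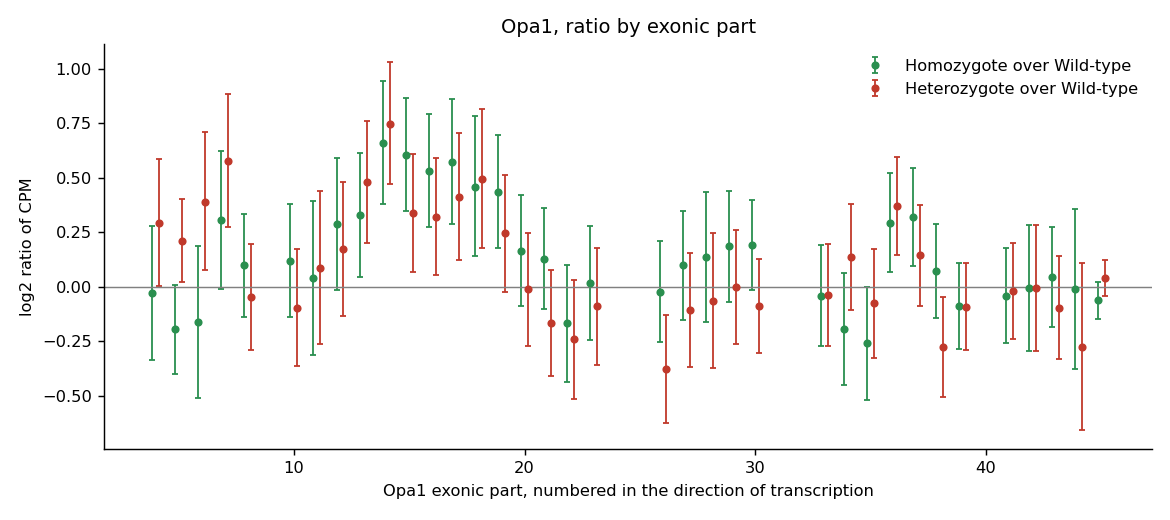
Log2 ratio of CPM over wild-type for each Opa1 exonic part with at least 100 reads in each library, in the homozygote and the heterozygote, against part number in the direction of transcription, with bars for 95% counting intervals. The intervals are approximate and were built from the exact Poisson limits of each count. Parts 13 to 19 lie above 0 in both mutant libraries, and part 14 is the highest in both at 0.66 and 0.75. Both ratios share the same wild-type library and so are not independent.

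The other members spanned narrower ranges over such parts, with homozygote to wild-type ratios of -0.10 to 0.13 in 28 parts of Immt and -0.18 to 0.11 in 11 parts of Apoo. The ratios ran from -0.376 to 0.058 in 20 parts of Chchd3, -0.224 to 0.195 in 8 of Chchd6 and -0.212 to 0.062 in 9 of Apool. The lowest Chchd3 part was thus below the lowest Opa1 part. It is the 1-bp untranslated part 31, with 109 reads in the homozygote and 134 in the wild-type heart and an interval of -0.751 to -0.004. Most Opa1 parts held fewer reads than those of Immt and Apoo, and the share of counting error in its wider range was not tested. In Apoo, the last 3 parts had lower ratios than the coding parts before them. Part 15 had 7573 reads in the homozygote, 7110 in the heterozygote and 8102 in the wild-type heart, whereas part 12 had 6370, 6729 and 5593. To put a figure on this, constitutive parts of each gene were split into 3 runs along the transcript, and reads of the last run were set over those of the first. In Apoo the log2 value was 0.836 in the homozygote, 0.644 in the heterozygote and 1.017 in the wild-type heart, and in Opa1 it was 0.783, 0.761 and 1.041. In Chchd6 it was -0.080 in the homozygote, -0.072 in the heterozygote and 0.084 in the wild-type heart. These 3 genes were highest in wild-type and the other 3 were not. Immt had 0.910 in the homozygote, 0.895 in the heterozygote and 0.896 in the wild-type heart, Chchd3 had -0.404, -0.329 and -0.367, and Apool had 1.456, 1.301 and 1.317. The median over 4259 genes was 0.516 in the homozygote, 0.573 in the heterozygote and 0.542 in the wild-type heart.

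Other genes of crista and mitochondrial shape were taken as a list of 49, of which 45 had a mean of at least 1 CPM. None passed a log2 ratio of 0.5 in either mutant, against 9.38% of all genes in the homozygote and 6.83% in the heterozygote. The list medians were 0.022 in the homozygote and 0.068 in the heterozygote, beside -0.083 and 0.006 over all genes. Among MICOS subunits outside the set, Micos10, which encodes the crista junction bending subunit MIC10, had 586.5 CPM in the homozygote, 622.3 in the heterozygote and 518.5 in the wild-type heart. Micos13, the MIC13 bridge between the branches of the complex, had 281.0 CPM in the homozygote, 287.6 in the heterozygote and 234.8 in the wild-type heart, log2 ratios of 0.26 and 0.29. Their ratios were larger than those of any of the 6 genes in the same library. They belong to a group of 8 listed MICOS and bridge genes outside the set, with medians of 0.014 in the homozygote and 0.099 in the heterozygote. Others of the group were lower in the homozygote, with Mtx3 at -0.328 (-0.488 to -0.167) and Chchd10 at -0.212 (-0.225 to -0.199).

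Of the proteases that cut OPA1, Yme1l1 was near wild-type, and Oma1 had log2 ratios of 0.14 in the homozygote and 0.26 in the heterozygote. Oma1 had 25.0 CPM in the homozygote, 27.3 in the heterozygote and 22.6 in the wild-type heart, and Yme1l1 had 31.6, 31.8 and 31.1. The fission GTPase gene Dnm1l had 53.1 CPM in the homozygote, 51.3 in the heterozygote and 43.6 in the wild-type heart, log2 ratios of 0.28 and 0.23. The outer membrane fusion gene Mfn2 had 352.6, 290.6 and 337.5 in the same order, log2 ratios of 0.063 and -0.22. For 7 ATP synthase genes, with the catalytic subunit gene Atp5b and the inhibitor gene Atpif1 among them, the median log2 ratio was 0.017 in the homozygote and 0.231 in the heterozygote. Atpif1 was the lowest of them in the homozygote, at -0.303, and the highest in the heterozygote, at 0.325. For 14 genes of general mitochondrial content it was 0.015 in the homozygote and 0.133 in the heterozygote. With the blood genes left out of the total, the medians were 0.051 in the homozygote and 0.148 in the heterozygote for the ATP synthase genes. They were 0.048 and 0.050 for mitochondrial content, and 0.055 and -0.014 for the 45 listed genes. This total was chosen as an alternative after seeing the data.

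Of the 49 listed genes, 47 were found, and 3 of these had an exonic part past 20 points. Between homozygote and wild-type, 2 of their 845 parts with 20 reads passed, or 0.237%, against 1.51% of all parts. Between heterozygote and wild-type, 3 of 846 passed, or 0.355%, against 1.58% of all parts. In Mief2, a fission adaptor, a 47-bp part had a PSI of 24.1% in the homozygote, 32.8% in the heterozygote and 3.16% in the wild-type heart, on 13, 30 and 2 inclusion reads. In Slc25a46, an outer membrane protein linked to MICOS, a 3602-bp part had 100% in the homozygote, 100% in the heterozygote and 79.9% in the wild-type heart, through 26 exclusion reads in wild-type alone. In Inf2, a formin of mitochondrial fission, a 270-bp part had 62.8% in the homozygote, 77.0% in the heterozygote and 45.7% in the wild-type heart, past the size in the heterozygote only, with an interval of the difference of -1.75 to 56.0.

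By PSI over the 3 libraries, the parts of other genes most like Immt part 44, among 128415 with at least 50 reads in each library, were in Etv3, Sphk2, Zfp992, Shc1 and Gm42971. Etv3, a repressor of transcription, was nearest at a distance of 8.40 points, with 50.7% in the homozygote, 17.5% in the heterozygote and 13.0% in the wild-type heart. Sphk2, a sphingosine kinase, followed at 9.78 points, with 44.1%, 24.8% and 16.0% for homozygote, heterozygote and wild-type. Likeness over 3 libraries is a description of these values only.

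As checks of the libraries, Rbm20 itself had 40.6 CPM in the homozygote against 37.2 in the wild-type heart, and a log2 ratio of -0.047 in the heterozygote, but a base change does not alter its count and so this does not check the labels. Cardiomyocyte markers summed to 62810 CPM in the homozygote, 64790 in the heterozygote and 57810 in the wild-type heart, with 7 of 7 measured markers within a log2 ratio of 0.5. Of all genes, 9.38% in the homozygote and 6.83% in the heterozygote were past that ratio in either direction. All 4 immune markers were lower in the homozygote than in wild-type, with a median log2 ratio of -0.72. All 4 passed 0.5 downwards, against 962 of all 12862 genes. In the heterozygote the immune median was -0.28, but Lyz2 was higher than in wild-type, at 0.196 (0.180 to 0.212). The 4 markers summed to 486.5 CPM in the heterozygote and 444.7 in the wild-type heart. Of 5 smooth muscle and pericyte markers, 3 passed 0.5 upwards in each mutant, against 245 of all 12862 genes in the homozygote and 299 in the heterozygote. The medians of these markers were 0.50 in the homozygote and 0.87 in the heterozygote, whereas Rgs5 stood at 0.021 (-0.009 to 0.051) in the homozygote. The fibroblast median was -0.011 in the homozygote and -0.33 in the heterozygote. Atrial markers were low, with Myl7 at 1.196 CPM in the homozygote, 1.65 in the heterozygote and 3.21 in the wild-type heart, and Sln at 0.0570, 0.0382 and 0.167. Nppa, which ventricles also make, had 157.1 CPM in the homozygote, 126.4 in the heterozygote and 83.1 in the wild-type heart. Among markers of small intestine, Lgals4 alone had 25.3 CPM in the homozygote, 56.7 in the heterozygote and 51.5 in the wild-type heart. The other 9 summed to 0.601 CPM in the homozygote, 0.598 in the heterozygote and 33.7 in the wild-type heart, so their signal was in the wild-type library. The part of these shifts in the values of the set was not tested.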

How the data were processed

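Total RNA of mouse hearts was made into libraries with the SMART-seq v4 and Nextera XT kits and sequenced on a NovaSeq. Per the labels, the authors' processing notes name cutadapt 1.1, Trimmomatic 0.32, TopHat2 2.0.14, Bowtie 1.1.1 and GRCm38. The program that counted exonic parts is not given in the sources used here. The deposited values were inclusion and exclusion read counts and PSI as a fraction from 0 to 1. PSI was recomputed from the counts with 129 possible junction positions, fitted from the deposited fractions, and differed from them by at most 5e-05 points. Also present were 3 PSI columns labelled 36 weeks, which have no sample record, and 2 columns of the authors' PSI differences, and neither kind was used. Combined loci of overlapping genes, with 12.1% to 13.2% of reads, were left out of gene sums.

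No test was run, since each genotype had 1 library. A part was called past 20 points of PSI where each library of the pair gave it 20 reads or more, and genes by an absolute log2 ratio of (CPM + 1) of at least 0.5 with a mean of at least 1 CPM. Reads that cover several parts are counted in each, so gene sums are not read totals and the counting intervals are too narrow. The members and gene lists were chosen with earlier results of these data known. All members were named, with each variable part, each listed gene past a threshold and the 5 most similar parts. Intervals of values of a single library are exact Clopper-Pearson or Poisson at 95%. Those of a PSI difference or a log2 ratio were built from the limits of its libraries and are approximate. The read ratios at the Immt end carry exact intervals. Python 3.11.15, numpy 2.4.6, pandas 2.3.3, scipy 1.17.1 and matplotlib 3.10.9 were used.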

Additional observations from a re-analysis of the deposited data

How the results depend on the processing

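No paired analysis was possible because each genotype had 1 library. Of the alternatives run for the PSI and level results, 38 stayed within the counting interval or, for counts, within 1.5 times the count, and 10 did not. Some of the 38 could hardly have moved, so the tally does not measure robustness. PSI was recomputed with positions fitted to the deposited column, and the part beside the Immt end part held nearly the same reads. Counts of 0 could not rise under stricter rules, such as a minimum of 50 reads or a size of 30 points. Summing all parts of a gene left each member's ratio unchanged. With the longest part of the annotated exon in place of the Immt end part, an alternative chosen after seeing the data, the Immt difference was 0 points for the homozygote and 0 for the heterozygote, since that 394-bp part was fully included in all libraries. With a minimum of 50 reads, 0 member parts passed 20 points between homozygote and wild-type instead of 2, since the Immt pair had 48 and 49 reads in the homozygote. With a size of 10 points, 3 parts passed between heterozygote and wild-type instead of 0. The median log2 ratio of the 6 genes in the homozygote was 0.015, and it was 0.113 with size factors from the median of ratios, 0.046 without the 50 genes of most reads and 0.049 without the 5 blood genes. In the heterozygote it was 0.077, and it was 0.021 without the 50 genes of most reads and -0.005 without the blood genes. The alternative without the blood genes was chosen after seeing the data. For these medians, the limits used were the median of the genes' lower limits and the median of their upper limits. Those limits are not a counting interval of the median. With a pseudocount of 0.1 CPM, 1 listed gene passed the fold in the homozygote instead of 0. It was Mtx3 at -0.52. The Immt end rests on 5 inclusion reads in wild-type, and the interval of the homozygote difference in Opa1 exon 5b ran from -9.35 to 11.4 points.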
